A study of Homo sapiens with 14 samples.

Results

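The ATF4 amino acid response genes described here are 10 genes chosen by symbol from a table of 26485 genes: ATF4, ASNS, TRIB3, DDIT3, CHAC1, ATF3, SESN2, PSAT1, PHGDH and DDIT4. Polyadenylated RNA was sequenced from the human embryonic stem cell line WA01, or H1, and from cultures driven from that line towards neural crest. Uninduced cells (hESC) received no agent. Low Wnt cultures received CHIR99021, a GSK3 inhibitor that switches on canonical Wnt signaling, at 3 µM from hour 0 to 72, and high Wnt cultures received it at 10 µM over the same hours. At each dose further cultures also received SB431542 (SB4), which blocks the type I receptors of TGF-beta, activin and nodal, at 10 µM, or recombinant human TGF-beta 1 (TGFB) at 5 ng/µL in the unit the labels print, both from hour 0 to 120. Induced cells were collected after day 5. Each of the 7 groups held 2 libraries, all from 1 line, and the labels do not say whether replicates came from separate cultures, so p-values speak only of the scatter among libraries, part or all of which can be technical.

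ATF4 is a bZIP transcription factor whose messenger RNA is translated more efficiently when the kinases GCN2, PERK, PKR or HRI phosphorylate the translation factor eIF2alpha, as happens when amino acids run short or the endoplasmic reticulum is stressed. With C/EBP partners it binds composite C/EBP-ATF elements and raises genes for amino acid synthesis, amino acid uptake, tRNA charging and feedback control. Pluripotent stem cells are known for a high demand for amino acids, methionine and serine metabolism among them. Because ATF4 protein is set largely at translation, its messenger RNA level is not a measure of its activity.

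Library totals ran from 10879287 to 19106827 counts, and 3 counts, the limit that a count of 0 allows, came to 0.157 to 0.276 CPM (counts scaled to a common library total) in a library. All 10 genes passed the filter on low counts, with 16149 genes tested. They held 0.231% and 0.254% of all counts in the hESC libraries and 0.0919% to 0.106% in the induced ones. The labelled cell types were set against marker lists. The summed level of 5 stem cell markers (POU5F1, NANOG, DPPA4, TDGF1 and DNMT3B) was 3968 to 4023 CPM in hESC, 510.4 to 560 in low Wnt, 1336 to 1453 in low Wnt with TGFB and 269.6 to 333 in the other 4 induced groups. The summed level of 8 neural crest markers was 42.3 to 49.7 CPM in hESC, 50.8 to 88.4 in the low Wnt groups and 233 to 348 in the high Wnt groups. Of the 8, 5 rose and 1 fell in low Wnt against hESC, where 35.8% of all genes tested rose and 35.6% fell. In high Wnt 4 rose and 2 fell, where 36.3% of all genes rose and 36.1% fell. Within that list PAX3 went from 0.0773 CPM in hESC to 170 in high Wnt and SNAI2 from 0.810 to 40.9. SOX10 stood at 5.24 CPM in hESC, 4.01 in low Wnt and 1.52 in high Wnt, and TFAP2B had no count in high Wnt. FOXD3 went from 33.9 CPM in hESC to 0.183 in high Wnt, and TFAP2A stood at 0.144 and 0.115. In bulk RNA, fewer cells of a type and less RNA per cell cannot be told apart.

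A C/EBP-ATF element can be recognised by the core TGATGNAA, where N is any base. The core, or its reverse complement TTNCATCA, was searched in the RefSeq promoter windows of the 10 genes (GRCh38.p14, 250 bases before to 50 after a transcript start). At least 1 window held a match in 3 of the 10 genes, against 4.46% of 27305 genes with a window. Counted by window it was 3 of 16, against 3.62% of 35116. The 10 genes were chosen as ATF4 response genes, so a higher share among them is no test of the element. The 3 stretches are shown because they hold these matches, and CHAC1, ATF3 and ASNS are also among the 4 genes whose group means ranged most widely. The other of those 4, TRIB3, has no match in its windows. Whether a match has a part in the level of a gene was not tested. Each line runs 5′ to 3′ on the strand of the gene, with the match in capitals.

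ASNS, chr7:97872443-97872502, minus strand: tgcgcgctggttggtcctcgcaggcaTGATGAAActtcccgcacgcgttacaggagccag
CHAC1, chr15:40953236-40953295, plus strand: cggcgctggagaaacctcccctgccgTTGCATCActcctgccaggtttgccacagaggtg
ATF3, chr1:212565190-212565249, plus strand: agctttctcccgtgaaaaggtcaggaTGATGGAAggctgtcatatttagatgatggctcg

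The match began 68 bases before an annotated start of ASNS, 209 before that of CHAC1 and 191 before the upstream start of ATF3. A match describes letters and not a bound site, and the windows of the other 7 genes hold no such letters.

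Per kilobase of the deposited gene length, so that genes can be compared, the mean level over the 7 groups was highest for PHGDH at 176 CPM per kilobase, ATF4 at 160.4 and PSAT1 at 100.4. DDIT4 followed at 76.8, ASNS at 25.3, ATF3 at 16.4 and SESN2 at 9.64. The lowest were CHAC1 at 3.84, DDIT3 at 2.80 and TRIB3 at 1.66 CPM per kilobase. The ratio of the highest to the lowest group mean was 30.7 for CHAC1, 10.5 for TRIB3, 6.64 for ATF3 and 5.53 for ASNS, and it was lowest, 1.95, for SESN2. For 7 genes, ATF4, ASNS, TRIB3, CHAC1, SESN2, PSAT1 and PHGDH, both hESC libraries lay above all 12 induced libraries. This held for 24.1% of all genes tested. By group mean ATF3 was highest in high Wnt and DDIT3 in high Wnt with TGFB. DDIT4 was highest in low Wnt with SB4 and lowest in low Wnt with TGFB, and all its neighbouring groups overlapped.

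**Figure D1:**
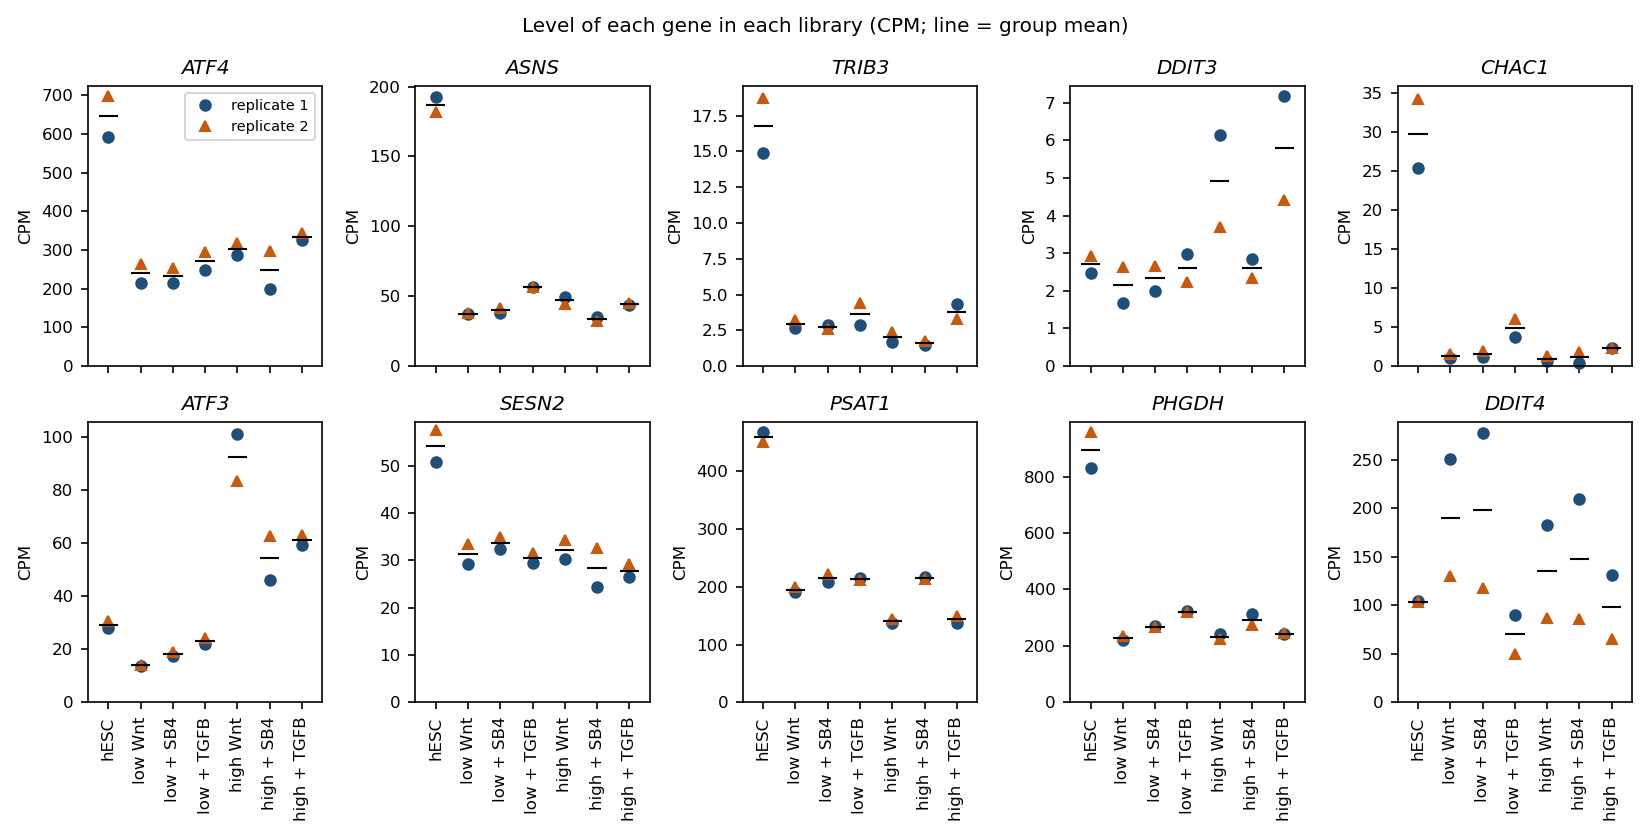
Level of each of the 10 genes in CPM (vertical axes, starting at 0) in the 14 libraries, with replicate 1 as circles, replicate 2 as triangles and the group mean as a line. ATF4, ASNS, TRIB3, CHAC1, SESN2, PSAT1 and PHGDH stand highest in both hESC libraries, ATF3 stands highest in high Wnt at 101 and 83.6 CPM, and the replicates of DDIT4 lie apart in every induced group.

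Among the regulators, ATF4 (chromosome 22, 39520559 to 39522686 in hg38, plus strand) stood at 592 and 699 CPM in replicates 1 and 2 of hESC. In low Wnt it stood at 216 and 264 CPM, with SB4 at 214 and 254 CPM, and with TGFB at 248 and 294 CPM. In high Wnt it stood at 288 and 317 CPM, with SB4 at 200.4 and 297 CPM, and with TGFB at 325 and 343 CPM. High Wnt with TGFB lay just above the other induced groups, and each neighbouring pair below it in the order overlapped.

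ATF3 (chromosome 1, 212565334 to 212620777, plus strand) encodes a stress-induced bZIP factor of the same family that is itself a target of ATF4. It stood at 27.9 and 30.5 CPM in hESC, at 13.7 and 14.1 CPM in low Wnt, and at 101 and 83.6 CPM in high Wnt. With SB4 it stood at 17.5 and 18.8 CPM at the lower dose and at 46.2 and 62.7 CPM at the higher dose. With TGFB it stood at 22.2 and 24.1 CPM at the lower dose and at 59.5 and 63.2 CPM at the higher dose. The groups of low Wnt all lay below hESC and those of high Wnt all above it, and only the SB4 and TGFB groups of high Wnt overlapped among neighbours.

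DDIT3 (chromosome 12, 57516588 to 57520517, minus strand) encodes CHOP, a C/EBP-family factor linked to cell death under prolonged stress. Its level was low, with 28 to 78 counts in a library. It stood at 6.13 and 3.69 CPM in high Wnt and at 7.17 and 4.40 CPM in high Wnt with TGFB, against 1.68 to 2.97 CPM in the other 10 libraries. The libraries of these 2 groups lay above all others, and its exons overlap those of MARS on the opposite strand, which the stranded counting keeps apart.

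TRIB3 (chromosome 20, 380629 to 397559, plus strand) encodes a pseudokinase that restrains ATF4. It stood at 14.9 and 18.7 CPM in hESC, at 2.64 and 3.22 CPM in low Wnt and at 1.69 and 2.39 CPM in high Wnt. With TGFB it stood at 2.90 and 4.39 CPM at the lower dose and at 4.32 and 3.27 CPM at the higher dose, and with SB4 at 2.85 and 2.62 and at 1.48 and 1.72 CPM. The hESC libraries stood apart, and high Wnt and high Wnt with SB4 overlapped each other below the other induced groups.

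Among the enzymes, ASNS (chromosome 7, 97852117 to 97872542, minus strand) encodes asparagine synthetase. It stood at 192 and 182 CPM in hESC, at 36.9 and 38.0 CPM in low Wnt and at 49.7 and 44.6 CPM in high Wnt. With TGFB it stood at 56.9 and 56.5 CPM at the lower dose and at 43.8 and 45.5 CPM at the higher, and with SB4 at 38.3 and 41.3 and at 35.2 and 32.4 CPM. Its replicates lay close together, so that only high Wnt and high Wnt with TGFB overlapped among neighbouring groups.

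PHGDH (chromosome 1, 119711796 to 119744226, plus strand) and PSAT1 (chromosome 9, 78297075 to 78330093, plus strand) encode the enzymes of the first steps of serine synthesis from a glycolytic intermediate. PHGDH stood at 832 and 957 CPM in hESC, at 220.1 and 233 CPM in low Wnt and at 243 and 223 CPM in high Wnt. With SB4 it stood at 270.4 and 266 CPM at the lower dose and at 312 and 273 CPM at the higher. With TGFB it stood at 322 and 321 CPM at the lower dose and at 242 and 245 CPM at the higher. Low Wnt with TGFB was thus the highest induced group for PHGDH as for ASNS. PSAT1 stood at 469 and 452 CPM in hESC, at 191 and 199.6 CPM in low Wnt and at 138 and 145 CPM in high Wnt. With SB4 it stood at 208 and 222 CPM at the lower dose and at 217 and 214 CPM at the higher, and with TGFB at 215 and 212 and at 138 and 150.2 CPM. High Wnt and high Wnt with TGFB formed the low end for PSAT1 and overlapped each other.

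CHAC1 (chromosome 15, 40953438 to 40956519, plus strand) encodes an enzyme that breaks down glutathione. It stood at 25.4 and 34.3 CPM in hESC, at 1.08 and 1.55 CPM in low Wnt and at 0.645 and 1.30 CPM in high Wnt. With TGFB it stood at 3.72 and 6.06 CPM at the lower dose and at 2.30 and 2.26 CPM at the higher, and with SB4 at 1.15 and 1.94 and at 0.452 and 1.84 CPM. In the induced libraries these levels rest on 7 to 98 counts, against 360 and 443 in hESC. The TGFB groups lay above the other induced groups.

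SESN2 (chromosome 1, 28259452 to 28282491, plus strand) and DDIT4 (chromosome 10, 72273919 to 72276039, plus strand) encode inhibitors of the growth kinase complex mTORC1, sestrin 2 and REDD1. SESN2 stood at 50.8 and 57.5 CPM in hESC and between 24.3 and 34.9 CPM in the 12 induced libraries, whose groups all overlapped their neighbours in the order. DDIT4 stood at 104 and 103 CPM in hESC, at 251 and 129.6 CPM in low Wnt and at 183 and 86.7 CPM in high Wnt. With SB4 it stood at 277 and 118 and at 209 and 85.9 CPM, and with TGFB at 90.3 and 50.04 and at 131 and 65.2 CPM. The libraries of a group differed in DDIT4 by 1.81 to 2.44 times in the induced groups and by 1.02 times in hESC, and all neighbouring groups in the order overlapped.

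Induction at the lower dose was read from low Wnt set against hESC. Of the 10 genes, 8 fell and none rose, where 35.6% of all genes tested fell and 35.8% rose. A gene was called when the Benjamini-Hochberg adjusted p of edgeR's quasi-likelihood test was under 0.05, and changes are given on the log2 scale ± their standard error (SE). The log2 change was -4.59 ± 0.403 for CHAC1 (adjusted p = 3.16e-08), a 24.0-fold decrease, -2.61 ± 0.256 for TRIB3 and -2.41 ± 0.102 for ASNS (adjusted p = 4.25e-12). It was -2.07 ± 0.108 for PHGDH, -1.33 ± 0.0862 for PSAT1 and -1.52 ± 0.159 for ATF4 itself (adjusted p = 2.51e-07). ATF3 changed by -1.16 ± 0.154 and SESN2 by -0.88 ± 0.139, the smallest of the 8. The exceptions were DDIT3 at -0.42 ± 0.361 (adjusted p = 0.312) and DDIT4 at 0.79 ± 0.472 (adjusted p = 0.145). With a term for replicate number in edgeR's fit, DDIT4 was called higher, at 0.65 ± 0.213 (adjusted p = 0.0124). The median over the 10 genes was -1.42, against 0.00403 over all genes tested.

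At the higher dose the comparison with hESC, which uses the same hESC libraries, gave 7 lower genes and 1 higher, where 36.1% of all genes fell and 36.3% rose. The log2 change was -4.98 ± 0.429 for CHAC1, -3.10 ± 0.273 for TRIB3, -2.06 ± 0.101 for ASNS, -2.02 ± 0.108 for PHGDH and -1.78 ± 0.0878 for PSAT1. It was -1.17 ± 0.158 for ATF4 and -0.82 ± 0.140 for SESN2. ATF3 rose by 1.59 ± 0.143 (adjusted p = 3.81e-08), a 3.01-fold increase, opposite in direction to the lower dose. DDIT3 stood at 0.78 ± 0.343 (adjusted p = 0.0512) and DDIT4 at 0.31 ± 0.474 (adjusted p = 0.575). The median was -1.48, against 0.00926 over all genes. The labels describe the medium of the induced cells only (DMEM/F12 with B27 and BSA on Matrigel), and the hESC medium is not given in the sources used here, so induction and a change of medium, amino acid supply included, cannot be told apart. All 5 stem cell markers fell in both comparisons, all 5 central nervous system progenitor markers rose in low Wnt (255 to 257 against 2.19 to 2.40 CPM, with HES5 at 0 counts in hESC) and all 5 mesoderm markers rose in high Wnt, and their part in these results was not tested.

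**Figure D2:**
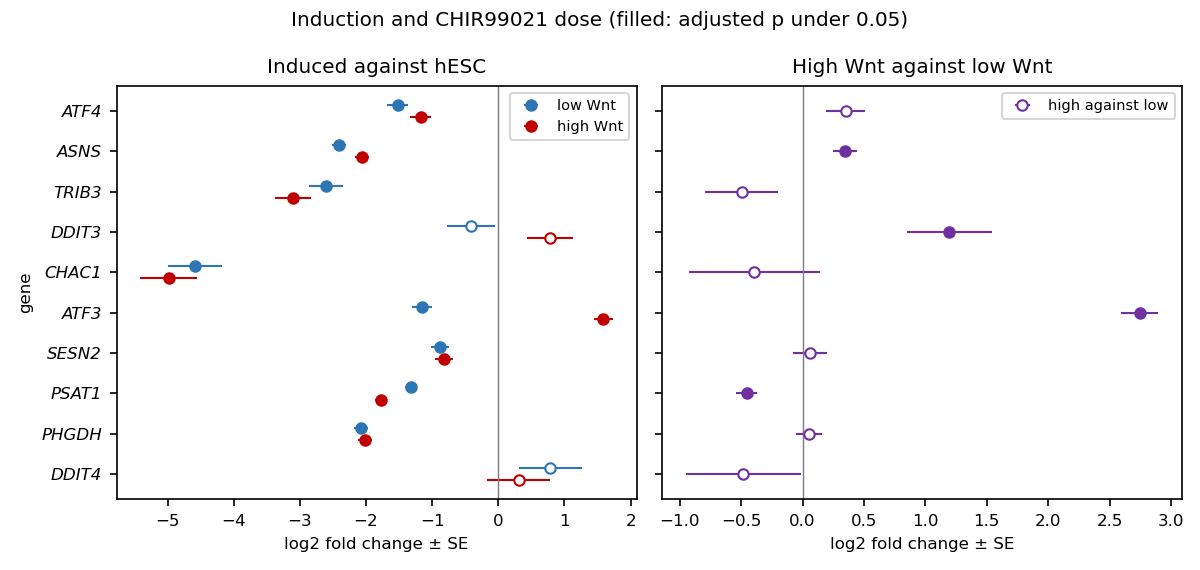
Log2 fold change ± SE (horizontal axes) of the 10 genes in low Wnt and high Wnt against hESC (left) and in high Wnt against low Wnt (right), with filled points for an adjusted p under 0.05. CHAC1, TRIB3, ASNS, PHGDH, PSAT1, ATF4 and SESN2 lie left of 0 at both doses, and ATF3 lies at -1.16 at the lower dose and at 1.59 at the higher.

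Most tested genes of 4 amino acid lists fell in the induced cells. Over all genes tested 35.6% fell in low Wnt and 36.1% in high Wnt. Of 12 tested aminoacyl-tRNA synthetase genes, 11 fell at each dose, as did 9 of 10 amino acid transporter genes and 6 of 6 genes for serine, glycine and folate-linked carbon enzymes. Of 6 genes for proline, alanine and transsulfuration enzymes, 6 fell at the lower and 5 at the higher dose. Among the transporters SLC7A5, the light chain of the large neutral amino acid exchanger, fell from 854 ± 91.3 to 60.3 ± 9.24 CPM (SD, n = 2) in low Wnt, a log2 change of -3.92 ± 0.192, and its heavy chain SLC3A2 changed by -2.79 ± 0.139. SLC7A3, a cationic amino acid transporter, changed by -3.12 ± 0.118. The synthetase genes TARS, MARS and YARS changed by -2.90, -2.24 and -2.13, and the mitochondrial enzymes SHMT2 and MTHFD2 of serine and folate metabolism by -2.08 and -1.84. The list medians at the lower dose were -1.77, -1.51 and -1.70 for synthetases, transporters and serine and glycine enzymes.

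The counts for upstream and partner genes stand against the same shares of all genes tested, 35.8% higher and 35.6% lower in low Wnt and 36.3% and 36.1% in high Wnt. Of 8 genes for eIF2alpha kinases, their regulators and phosphatase subunits, 2 rose and 2 fell in low Wnt, and 4 rose and 3 fell in high Wnt (2 and 2 without hESC replicate 1). EIF2AK4, which encodes the amino acid sensor GCN2, changed by -1.17 ± 0.0987 in low Wnt and -1.33 ± 0.0997 in high Wnt. PPP1R15A, which encodes the stress-induced phosphatase subunit GADD34 and is itself an ATF4 target, rose by 0.93 ± 0.128 and 1.22 ± 0.128. Of 7 tested bZIP partner genes 5 fell in low Wnt, among them CEBPB, from 16.3 ± 0.0401 to 1.65 ± 0.981 CPM, and in high Wnt 4 fell and 1 rose. Of 12 other reported ATF4 targets 5 rose and 6 fell in low Wnt, with FAM129A at -5.09 ± 0.299 and the ubiquitin ligase adaptor KLHL24 at 1.57 ± 0.135. Of 14 chaperone genes governed by ATF6 and XBP1, the other arms of the endoplasmic reticulum stress response, 11 fell and 3 rose in low Wnt, HSPA5 (BiP) by -1.69 ± 0.101, and 8 fell and 4 rose in high Wnt.

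**Figure D3:**
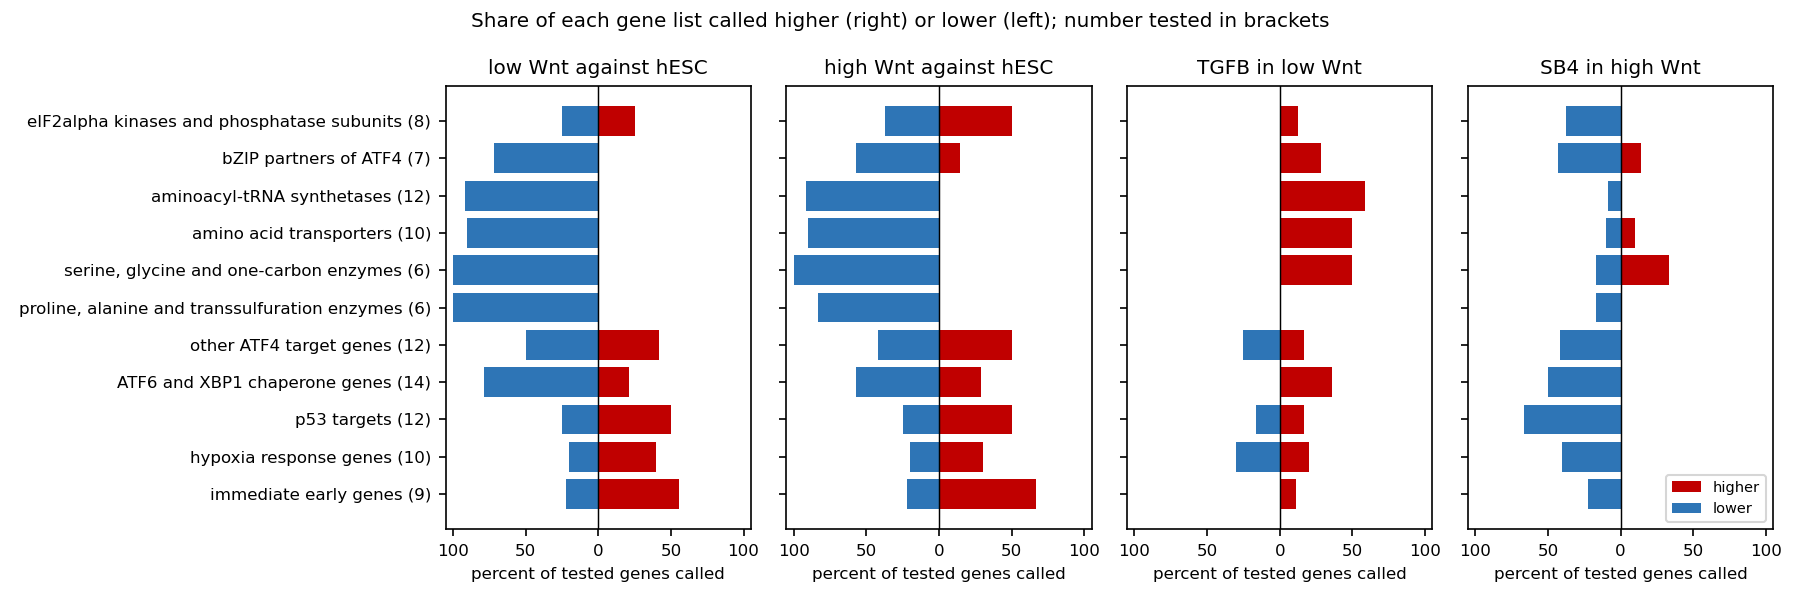
Percent of the tested genes of 11 gene lists (rows, number tested in brackets) called higher (right of 0) or lower (left of 0) in 4 comparisons. The lists for tRNA synthetases, transporters and amino acid enzymes lie almost wholly on the lower side against hESC, and with TGFB in low Wnt 7 of 12 synthetase and 5 of 10 transporter genes lie on the higher side. Over all genes tested 35.6% fell in low Wnt and 36.1% in high Wnt against hESC, and 13.7% rose with TGFB in low Wnt.

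High Wnt against low Wnt compared the doses of CHIR99021. Of the 10 genes 3 rose and 1 fell, where 19.4% of all genes rose and 19.1% fell, so the count of the 10 called was near that of genes at large. ATF3 rose by 2.75 ± 0.152 (adjusted p = 2.52e-10), a 6.71-fold increase. DDIT3 rose by 1.19 ± 0.344 (adjusted p = 0.0109) and ASNS by 0.35 ± 0.102 (adjusted p = 0.0124), and PSAT1 fell by 0.45 ± 0.0861 (adjusted p = 0.000464). ATF4 stood at 0.35 ± 0.157 (adjusted p = 0.0893), and with a term for replicate number in edgeR's fit it was called higher (adjusted p = 0.0118). TRIB3 stood at -0.50 ± 0.296, CHAC1 at -0.39 ± 0.535, DDIT4 at -0.48 ± 0.468, SESN2 at 0.06 ± 0.141 and PHGDH at 0.05 ± 0.105. The median over the 10 was 0.06, against -0.00688 over all genes. Leaving out a library leaves a group of 1, whose spread is taken from the other groups, so a call can be lost while the change stays. Without high Wnt replicate 1 the log2 change was 0.24 for ASNS and 0.76 for DDIT3 (adjusted p = 0.173 for both). Without low Wnt replicate 1 it was 0.33 and 0.92 (adjusted p 0.0741 and 0.11), and for ASNS without low Wnt replicate 2 it was 0.36 (adjusted p = 0.055). In the same comparison all 5 mesoderm markers rose (summed level 4.83 to 5.40 CPM in low Wnt and 180 to 201 CPM in high Wnt) and all 5 stem cell markers fell, with NANOG at 0 counts in high Wnt. Of the 5 central nervous system progenitor markers 4 fell (255 to 257 CPM in low Wnt and 6.86 to 8.75 CPM in high Wnt, with DBX1 at 0 counts there). The part of these markers in the result was not tested.

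In the wider pathway 9 of 14 chaperone genes rose with dose and 1 fell (6 and 0 without high Wnt replicate 1). Over all genes tested 19.4% rose and 19.1% fell with dose. HSP90B1, the endoplasmic reticulum form of HSP90, stood at 1718 ± 127 against 852 ± 2.77 CPM, a log2 change of 1.03 ± 0.0946, and HSPA5 changed by 0.81 ± 0.0994. Of 7 bZIP partner genes 4 rose (2 without low Wnt replicate 2), JDP2 by 1.27 ± 0.148. The transporters split, with 1 higher and 3 lower (0 and 2 without hESC replicate 2, low Wnt replicate 1, high Wnt replicate 1 or any library of low or high Wnt with SB4, and also by DESeq2). SLC7A11, the cystine carrier, stood at 2.39 ± 0.296 against 23.0 ± 4.68 CPM, a log2 change of -3.24 ± 0.252. Of the 12 synthetase genes 3 rose and 4 fell (3 and 1 without replicate 2 of either group), with TARS at 1.23 ± 0.0990, and 3 of 6 serine and glycine enzyme genes rose, SHMT2 by 0.73 ± 0.107.

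SB4 in low Wnt asked what blocking these receptors changed at the lower dose. None of the 10 genes was called by edgeR's quasi-likelihood test or by DESeq2, where 4.84% of all genes rose and 6.39% fell. At an unadjusted p under 0.05, 2 of them passed by either tool. They were ATF3 at 0.38 ± 0.155 (adjusted p = 0.142) and PHGDH at 0.23 ± 0.104 (adjusted p = 0.175). Ordered by p in edgeR's test they ranked 3140 and 3576 of 16149 genes tested, and the genes ranked above them passed this cut-off as well. The values of the 10 ran from -0.11 for TRIB3 to 0.38 for ATF3, with a median of 0.11 against 0 over all genes. All 5 stem cell markers fell (summed level 312 to 316 against 510.4 to 560 CPM) and 4 of 5 central nervous system progenitor markers rose, and their part in these values was not tested. Among the lists EIF2AK3, which encodes PERK, changed by -0.41 ± 0.110, and 4 of 12 other reported ATF4 targets fell, with STC2, a secreted glycoprotein, at -1.20 ± 0.130. Of the transporters 1 rose and 3 fell, a count of 4 that dropped to between 0 and 2 without any 1 of the 4 libraries compared.

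SB4 in high Wnt gave 1 higher and 2 lower genes, where 9.94% of all genes rose and 11.6% fell (12.6% and 9.52% with libraries scaled by their totals alone, under which 2 of the 10 rose and 2 fell). The log2 change was -0.82 ± 0.137 for ATF3 (adjusted p = 0.000443) and -0.54 ± 0.102 for ASNS (adjusted p = 0.0013), while PSAT1 rose by 0.55 ± 0.0861 (adjusted p = 0.000252). DDIT3, at -0.97 ± 0.338, missed the threshold narrowly (adjusted p = 0.05004). ATF4 stood at -0.34 ± 0.156 (adjusted p = 0.136) and PHGDH at 0.27 ± 0.104 (adjusted p = 0.0784). TRIB3 stood at -0.41 ± 0.318, SESN2 at -0.24 ± 0.142, CHAC1 at 0.18 ± 0.545 and DDIT4 at 0.07 ± 0.469. With a term for replicate number in edgeR's fit, ATF4 and DDIT3 were called lower (adjusted p 0.0197 and 0.048). The median over the 10 was -0.29, against 0.00302 over all genes. Of the 5 central nervous system progenitor markers 3 rose (summed level 77.6 to 98.9 CPM against 6.86 to 8.75 CPM, with DBX1 at 0 counts in high Wnt), and of the 5 mesoderm markers 3 fell (116 to 134 against 180 to 201 CPM). Their part in the result was not tested.

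Counts in the lists for SB4 in high Wnt stand against the 9.94% of all genes that rose and 11.6% that fell. Of the 12 other reported ATF4 targets 5 fell and none rose, with JMJD1C at -1.01 ± 0.158, ADM2 at -1.62 ± 0.277 and KLHL24 at -0.67 ± 0.123. Of the 14 chaperone genes 7 fell (4 without high Wnt with SB4 replicate 2), with HSP90B1 at -0.76 ± 0.0941 and HSPA5 at -0.63 ± 0.0991. Of the 8 eIF2alpha kinase and phosphatase genes 3 fell, EIF2AK3 at -0.70 ± 0.112, PPP1R15A at -0.71 ± 0.123 and PPP1R15B, the constitutive phosphatase subunit, at -0.46 ± 0.131. Of the 7 bZIP partner genes ATF5 rose and 3 fell, JDP2 at -1.46 ± 0.149, and the 4 calls dropped to 1 without high Wnt replicate 1 and to 2 without either library of high Wnt with SB4. Of the 6 serine and glycine enzyme genes PSPH, which completes serine synthesis, rose by 0.48 ± 0.120 and SHMT1 by 0.43 ± 0.113, while ALDH1L2 stood at -1.17 ± 0.298. The 3 calls dropped to 1 without high Wnt replicate 2 and to 0 without high Wnt with SB4 replicate 1. Of the transporters SLC6A9, a glycine carrier, rose by 1.23 ± 0.198 and SLC7A5 stood lower at -0.73 ± 0.187, and YARS was the only synthetase gene of 12 called, at -0.31 ± 0.0914.

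With TGFB in low Wnt 4 of the 10 genes rose and 1 fell, where 13.7% of all genes rose and 12.2% fell (17.3% and 8.56% with library totals alone, under which 4 and 1 of the 10 were called as well). CHAC1 rose by 1.81 ± 0.424 (adjusted p = 0.0044), a 3.51-fold increase that left it at 4.89 ± 1.66 CPM, against 29.8 ± 6.27 CPM in hESC (SD, n = 2). ATF3 rose by 0.65 ± 0.155 (adjusted p = 0.005), ASNS by 0.51 ± 0.101 (adjusted p = 0.00109) and PHGDH by 0.42 ± 0.104 (adjusted p = 0.00648). DDIT4 fell by 1.53 ± 0.482 (adjusted p = 0.0274). ATF4 stood at 0.10 ± 0.156 (adjusted p = 0.703), so the messenger RNA of the factor itself did not pass the test here, and TRIB3, DDIT3, SESN2 and PSAT1 ran from -0.12 to 0.24. The median over the 10 was 0.21, against -0.00549 over all genes.

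With a library left out, 3 of these 5 calls were lost in some fits, each with a group of 1. Without low Wnt replicate 1 the log2 change was 1.58 for CHAC1 (adjusted p = 0.0503), 0.39 for PHGDH (0.0628) and -0.96 for DDIT4 (0.242). Without low Wnt with TGFB replicate 2 it was 1.42 for CHAC1 (0.072) and -1.15 for DDIT4 (0.217). Without low Wnt replicate 1, PHGDH and CHAC1 thus kept most of their change and DDIT4 moved furthest, from -1.53. Without low Wnt with TGFB replicate 2, CHAC1 (from 1.81) and DDIT4 moved by similar amounts. DDIT4 was not called by DESeq2 (-1.51, adjusted p = 0.0975). With a term for replicate number in edgeR's fit, the replicate block, DDIT4 stood at -1.51 ± 0.217 (adjusted p = 7.34e-05). Its replicate 1 lay above its replicate 2 in both groups compared, and with a library left out the groups no longer hold the same replicate numbers. All 5 stem cell markers rose with TGFB (summed level 1336 to 1453 against 510.4 to 560 CPM, and 3968 to 4023 CPM in hESC, POU5F1 at 44.0 against 3.14 CPM), and all 5 endoderm markers rose (71.4 to 135 against 17.2 to 18.3 CPM). All 5 central nervous system progenitor markers fell (63.6 to 64.9 against 255 to 257 CPM). Their part in the result was not tested.

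In 3 of the 4 amino acid lists part of the genes rose in low Wnt with TGFB, where 13.7% of all genes rose. Of the 12 synthetase genes 7 rose and none fell, TARS by 1.31 ± 0.0988, from 60.4 ± 4.12 to 159 ± 8.19 CPM, YARS by 0.59 ± 0.0911 and MARS by 0.58 ± 0.102. Of the 10 transporter genes 5 rose, SLC7A3 by 1.61 ± 0.113, SLC7A11 by 1.38 ± 0.188 and SLC7A5 by 1.34 ± 0.178. Of the 6 serine and glycine enzyme genes 3 rose, MTHFD2 by 0.64 ± 0.0994. The list medians were 0.38, 0.55 and 0.54. Among the 6 proline, alanine and transsulfuration genes the smallest adjusted p was 0.0595, for PYCR1. Of the 7 bZIP partner genes 2 rose, CEBPB by 1.65 ± 0.363 and FOSL1 by 1.79 ± 0.295, and of the eIF2alpha list EIF2AK4 rose by 0.40 ± 0.0982. Of the 12 other reported ATF4 targets 2 rose and 3 fell, with FAM129A at 2.39 ± 0.310 and with VLDLR, a lipoprotein receptor, at -0.996 ± 0.140 and STC2 at -0.75 ± 0.129. Of 14 chaperone genes 5 rose, a count of calls that was 8 without hESC replicate 1, 1 without either low Wnt library and 0 without low Wnt with TGFB replicate 2.

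TGFB in high Wnt called 1 of the 10 genes, lower, where 3.75% of all genes rose and 3.49% fell (4.87% and 2.48% with library totals alone, under which the same count of 1 was lower). ATF3 fell by 0.65 ± 0.138 (adjusted p = 0.00673), and it stood at -0.48 without high Wnt replicate 1 (adjusted p = 0.126) and at -0.60 without high Wnt with TGFB replicate 1 (adjusted p = 0.0842), each a fit with a group of 1. TRIB3 stood at 0.80 ± 0.296 (adjusted p = 0.119) and CHAC1 at 1.13 ± 0.509 (adjusted p = 0.214). The other 7 ran from -0.54 for DDIT4 to 0.16 for DDIT3, and the median over the 10 was -0.0164 against 0 over all genes. Of the lists 2 of 12 synthetase genes rose, EPRS and MARS by 0.37 each, and 2 of 10 transporter genes, SLC7A11 by 1.08 ± 0.293 and SLC6A9 by 0.94 ± 0.205. Of the 6 serine and glycine enzyme genes MTHFD2 was lower, at -0.41 ± 0.0994, and of the 7 bZIP partner genes BATF3, at -1.93 ± 0.532. Of the 12 other reported ATF4 targets 1 rose and 2 fell (1 and 0 without any 1 of the 4 libraries compared), with VLDLR at 0.92 ± 0.155 and GDF15, a stress-induced cytokine, at -1.26 ± 0.326. Of the mesoderm markers 2 of 5 rose (383 to 427 against 180 to 201 CPM), and their part in the result was not tested.

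**Figure D4:**
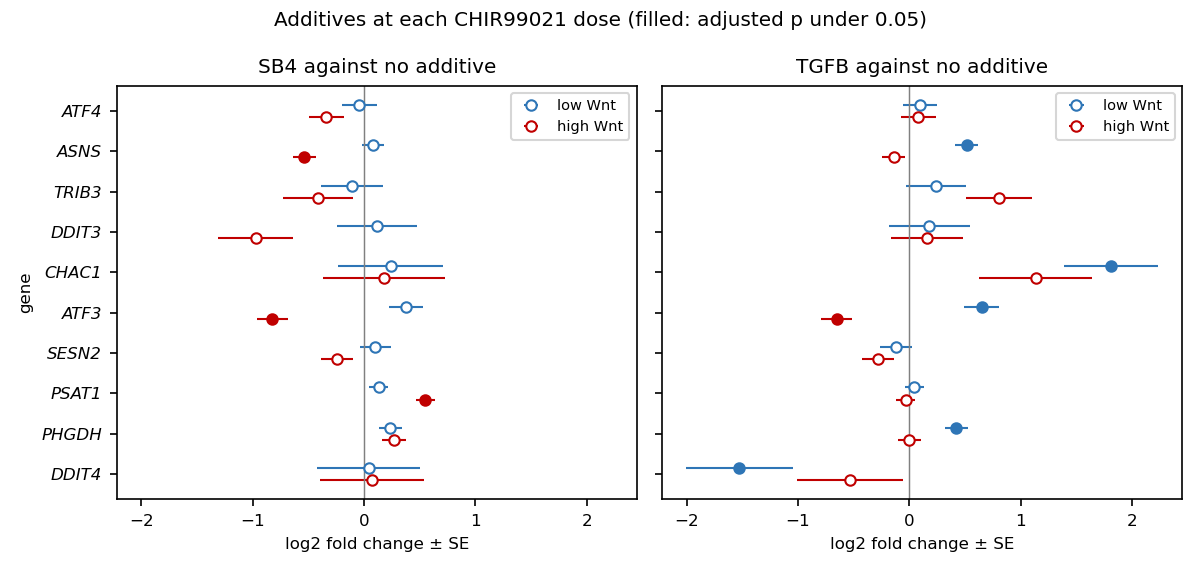
Log2 fold change ± SE (horizontal axes, the same scale in both panels) of the 10 genes with SB4 (left) and with TGFB (right), each against the same dose of CHIR99021 without additive, with filled points for an adjusted p under 0.05. ATF3 and ASNS lie right of 0 with TGFB in low Wnt, and with SB4 in high Wnt they lie left of it at -0.82 and -0.54. With TGFB in high Wnt they lie at -0.65 and -0.14, and with SB4 in low Wnt at 0.38 and 0.08.

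Whether an additive acted differently at the 2 doses was tested by the difference of its effects, high minus low Wnt. For SB4 that difference was lower for 2 of the 10 genes and higher for none, where 3.36% of all genes were lower and 2.71% higher. It was -1.20 ± 0.207 for ATF3 (adjusted p = 0.00164) and -0.62 ± 0.144 for ASNS (adjusted p = 0.0144). Without low Wnt replicate 1 or 2, low Wnt with SB4 replicate 2, high Wnt replicate 1 or high Wnt with SB4 replicate 2, each of which leaves a group of 1, the ASNS difference was -0.63 to -0.52 and was not called (adjusted p 0.051 to 0.0862). PSAT1 stood at 0.42 ± 0.121 (adjusted p = 0.0518).

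For TGFB the difference was again lower for 2 genes and higher for none, where 6.06% of all genes were lower and 5.73% higher. It was -1.30 ± 0.207 for ATF3 (adjusted p = 0.000444), which rose with TGFB in low Wnt and fell in high Wnt, and -0.65 ± 0.143 for ASNS (adjusted p = 0.00567), which rose in low Wnt and stood at -0.14 ± 0.102 in high Wnt. PHGDH stood at -0.42 ± 0.148 (adjusted p = 0.0782). Both differences share the libraries without additive, so the results for SB4 and TGFB are not independent of each other.

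Genes whose pattern over the 7 group means was most like that of ATF4 were sought among 10302 other genes with a mean of at least 10 CPM, by the root-mean-square difference of centred log2 CPM. They were ALG3, CIB1, GRAMD1A, TRAF7 and JTB, at 0.0939 to 0.102, against a median of 0.61 over all genes compared. For ASNS they were PRKAR1B, VASP, IGSF8, SLC3A2 and ZYX, at 0.150 to 0.189, against a median of 0.89, and SLC3A2 is also on the transporter list. For the mean of the 10 genes they were TIMM44, COX5A, GARS, EPN1 and MRPL38, at 0.0690 to 0.0933, of which GARS, the glycyl-tRNA synthetase gene, is on the synthetase list. These are descriptions over 7 points, most of whose range lies between hESC and the induced groups.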

How the data were processed

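The values are raw fragment counts per gene, deposited by the authors, with 1 column for each of 14 libraries. The tools, per the submitters' processing notes, were featureCounts 2.0.0, SAMtools 1.10, HISAT2 2.2.0 and bcl2fastq, and the build was hg38. Per the file headers, fragments were counted over exons with reverse strandedness, without multiply mapped reads or reads shared by genes, so a gene with near-identical copies can lose reads. The deposited table also gives each gene's length in bases, used as a value of another kind to compare levels between genes. Per the labels' protocols, RNA came from 500000 cells a library, was selected for poly(A) and made into directional libraries. Read trimming is not described in these sources.

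The 10 genes and all gene lists were chosen with earlier results of these data known. Counts were fitted with edgeR 4.0.16 in R 4.3.3: filterByExpr by group, TMM scaling, and 1 quasi-likelihood fit of 14 libraries with 7 residual degrees of freedom. SE is the size of the log2 fold change over the square root of F. CPM uses library totals, and log2 CPM a prior count of 2. Named genes are the 10, up to 3 of smallest p in a list and comparison, and 5 per pattern for likeness. The table lists the marker TBXT under its older symbol T, and RefSeq (GRCh38.p14) matched it. Replicates differed by more than counting noise in every group (chi-square per degree of freedom 5.26 to 14.1), and intervals of counting alone do not cover this. Each library was left out in turn. Other alternatives were a replicate block, fits of only the groups compared or without hESC, DESeq2 1.42.0, scaling by RLE or by library totals, no low-count filter, and a minimum log2 change of 1. The fit was checked on simulated counts.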

Additional observations from a re-analysis of the deposited data

Results flagged for a closer look

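The effects of the additives on 2 of the 10 genes differed between the doses of CHIR99021 by the interaction term of edgeR's quasi-likelihood fit. For SB4 the difference, high minus low Wnt, was -1.20 for ATF3 and -0.62 for ASNS on the log2 scale. For TGFB it was -1.30 for ATF3 and -0.65 for ASNS. All 4 values use the same libraries without additive at each dose.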

How the results depend on the processing

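The limits lie in 2 libraries a group, in CHAC1, DDIT3 and TRIB3 resting on few counts, and in the spread of DDIT4 between replicates. Of 1260 values of a gene in a comparison with a library left out, 1223 stayed called or not called, 17 lost a call and 20 gained one. Of 700 under the other alternatives 654 stayed so, 14 lost a call and 32 gained one. No value called in the main or the other fit reversed its direction. For values called in neither fit the direction was not compared. The count of the 10 genes called ran, with a library left out, from 8 to 8 in low Wnt against hESC, 8 to 9 in high Wnt against hESC, 2 to 5 in high against low Wnt, 0 to 0 for SB4 in low Wnt, 3 to 4 for SB4 in high Wnt, 2 to 5 for TGFB in low Wnt and 0 to 1 for TGFB in high Wnt. It ran from 1 to 3 for the difference of the SB4 effects and 2 to 3 for that of the TGFB effects. A log2 fold change of at least 1 left 2 in high against low Wnt, 0 for SB4 in high Wnt, 2 for TGFB in low Wnt, 0 for TGFB in high Wnt and 1 for each difference of effects, since fewer genes can pass. Without the low-count filter the count was 5 for SB4 in high Wnt and 3 for TGFB in high Wnt, and without the hESC libraries 5 for SB4 in high Wnt, and the cause was not tested. TMM or RLE scaling moved group levels to between 0.955 and 1.11 times those printed.

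Among these 9 comparisons the replicate block moved the count beyond 1.5 times for SB4 in high Wnt only, to 5 from 3. It called ATF4 (-0.36, adjusted p = 0.0197) and DDIT3 (-0.96, 0.048) there, ATF4 in high against low Wnt (0.36, 0.0118), DDIT4 in low Wnt against hESC (0.65, 0.0124), PSAT1 in the difference of the SB4 effects (0.42, 0.0449) and DDIT4 in that of the TGFB effects (0.99, 0.0407). Over all genes 5 of 21 pairs of groups had a correlation of same-numbered deviations over 0.1 (range -0.116 to 0.206), so the numbers were not taken as pairs. Some genes did differ by number in all 7 groups: the term for replicate 2 against replicate 1 was -0.93 ± 0.115 for DDIT4 (adjusted p = 0.002) and 0.25 ± 0.0556 for ATF4 (adjusted p = 0.0456).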

Other observations

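Of 12 p53 target genes 6 rose and 3 fell in each comparison with hESC, where 35.8% to 36.3% of all genes rose and 35.6% to 36.1% fell. PMAIP1, which encodes the cell death protein NOXA, went from 111 ± 12.9 CPM in hESC to 5.06 ± 0.273 CPM in low Wnt and 1.26 ± 0.0429 CPM in high Wnt, and stood at 101 ± 5.15 CPM (SD, n = 2) in low Wnt with TGFB. TP53INP1 rose by 2.38 ± 0.140 in low Wnt and 2.49 ± 0.140 in high Wnt. With SB4 in high Wnt 8 of the 12 fell and none rose, where 11.6% of all genes fell, with ZMAT3 at -1.53 ± 0.135, RRM2B at -1.13 ± 0.128 and the cell cycle inhibitor CDKN1A at -1.39 ± 0.211. With TGFB in high Wnt 1 of the 12 rose and 5 fell, ZMAT3 at -0.72 ± 0.132, and the 6 calls dropped to 1 without replicate 1 of either group and to 2 without high Wnt with TGFB replicate 2.

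Of 10 hypoxia response genes 4 rose and 2 fell in low Wnt against hESC, close to the 35.8% of all genes that rose and below the 35.6% that fell. The peptide hormone gene ADM fell by 4.69 ± 0.240, and in low Wnt with TGFB it rose by 3.15 ± 0.236 from 5.08 ± 1.08 to 47.9 ± 18.8 CPM. The collagen prolyl hydroxylase gene P4HA1 rose by 1.64 ± 0.131 on induction and fell by 0.99 ± 0.127 with TGFB. Of 9 immediate early genes 5 rose and 2 fell in low Wnt and 6 rose and 2 fell in high Wnt, with MYC at -1.66 ± 0.133 and -2.25 ± 0.139 and DUSP1, an inducible phosphatase of MAP kinases, at 1.81 ± 0.180 in high Wnt.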
